A study of Mus musculus with 4 samples.

Results

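The 33 genes described here encode the enzymes, carriers and regulators of glycolysis and other well-known members of the hypoxia response. They were chosen by gene symbol, and 33 of 33 were found among the 33677 rows of the count table; all 33 passed the filter on low counts. They were split into 21 glycolysis genes (16 enzymes of the pathway, 2 carriers and 3 regulators) and 12 other hypoxia genes. The study measured mRNA by sequencing in PyMT-A, cells from a mammary tumour of FVB/NJ mice, in 2 lines. Jagged1 cells had been infected with a PMSCV retrovirus carrying Jagged1, a ligand of Notch receptors, and vector cells with the PMSCV-puro virus. Each line gave 2 libraries, called Jagged1 1, Jagged1 2, vector 1 and vector 2 after the replicate numbers in their titles. Both lines were kept in the same serum-containing medium. The sources used here do not give oxygen, glucose, cell density, the promoter that drove Jagged1 or whether a line was a clone.

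Glycolysis splits glucose into pyruvate, which lactate dehydrogenase can turn into lactate for export from the cell. The hypoxia-inducible factors (HIF) are transcription factors whose alpha subunits, encoded by Hif1a and Epas1, are marked for destruction by the oxygen-dependent EGLN prolyl hydroxylases. When oxygen is short the alpha subunits persist, pair with ARNT and switch on genes of glucose uptake, glycolysis, lactate export, pH control and collagen hydroxylation, and many tumour cells run glycolysis at a high rate even with oxygen present.

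The libraries held 20835208 and 13549258 counts in Jagged1 cells and 15609720 and 12136227 counts in vector cells. Levels are given as CPM, counts scaled to a common library size with the TMM factors of edgeR, and 3 counts, the detection floor used here, came to between 0.145 and 0.244 CPM. Jag1 reads rose to 5676 and 4493 in Jagged1 cells, against 159 and 112 in vector cells, a log2 fold change of 4.93 ± 0.20 (SE; edgeR, adjusted p = 0.0111), and Jag1 was the only gene called among 13299 tested; it was not called without vector 1 (edgeR, adjusted p = 0.24) or without vector 2 (adjusted p = 0.153). The epithelial markers Epcam (965 and 954 CPM in Jagged1 cells, 921 and 836 CPM in vector cells), Krt8, Krt18, Cdh1 and Krt14 were abundant in all 4 libraries, while Krt5 and Krt19 had at most 2 reads. The T cell markers Cd3e, Cd3g, Cd4 and Cd8a were at 0 in all 4 libraries, and Ptprc, the general marker of blood cells, had at most 1 read. In these bulk libraries a smaller share of cells expressing a gene and less RNA per cell cannot be told apart.

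No member of either group was called as different between Jagged1 and vector cells. With edgeR's quasi-likelihood test the adjusted p was 1 for all 33 members, and 0.00752% of all tested genes were called. At an unadjusted p under 0.05 stood 0 of 21 glycolysis genes and 3 of 12 other hypoxia genes (Ndrg1, Adm and Epas1), where 3.96% of all tested genes did. DESeq2, which called 0.353% of its tested genes, an edgeR fit with the replicate number as a block, which called 0.128%, and an edgeR fit without the filter on low counts, which called 0.686%, called 0 members each. With 2 libraries a line a p that misses the threshold does not show that the lines were alike, and an exact permutation test over the libraries cannot go below 0.333.

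The members lay on both sides of no difference, with log2 fold changes from -0.22 (Hk1) to 1.675 (Eno2) in the glycolysis genes and from -1.37 (Adm) to 0.798 (P4ha2) in the other hypoxia genes. The median log2 fold change was 0.09 over the 21 glycolysis genes (13 positive, 8 negative). It was 0.28 over the 12 other hypoxia genes (9 positive, 3 negative) and -0.003 over all tested genes (6588 positive, 6711 negative). The log2 fold change lay within 0.25 of 0 in 15 glycolysis genes and in 4 other hypoxia genes. Jagged1 values exceeded both vector values in both libraries in 4 members, Pfkm, Pfkp, Ankrd37 and Epas1, which is 12.1% of the 33, against 13.9% of all tested genes. Both lay below in 2 members, Ndrg1 and Adm, or 6.06%, against 15.1% of all tested genes. Over the 33 members together, neither share was above that of all tested genes. Taken apart, the glycolysis genes had 9.52% above and 0% below. The other hypoxia genes had 16.7% above and 16.7% below, each share standing for 2 genes.

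**Figure D1:**
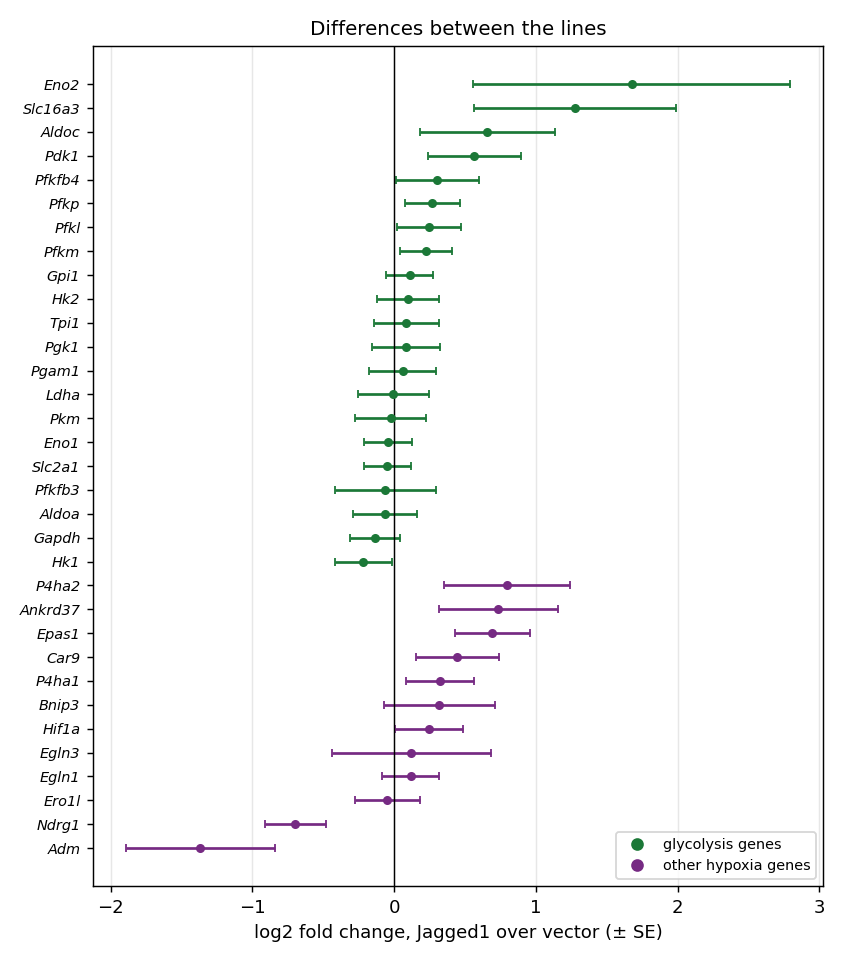
Log2 fold change of each member, Jagged1 over vector, with its standard error from the edgeR fit on 2 libraries per line; green points are the 21 glycolysis genes and purple points the 12 other hypoxia genes, each sorted by value. Most enzymes sit near 0, Eno2 (1.675 ± 1.12) and Slc16a3 (1.27 ± 0.71) have the widest bars, and Adm (-1.37 ± 0.52) lies furthest to the left.

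The part of the reads taken by the enzymes of the pathway overlapped between the lines. The 16 enzyme genes took 1.11% and 1.14% of all counts in the Jagged1 libraries and 1.26% and 0.967% in the vector libraries, so both Jagged1 libraries lay between the 2 vector libraries. The exact 95% binomial intervals, which cover counting error only, were 1.110 to 1.119% and 1.132 to 1.143% in Jagged1 cells and 1.258 to 1.270% and 0.962 to 0.973% in vector cells. Divided by the exon length of each gene and averaged over the 4 libraries, the level was highest for Pkm (pyruvate kinase, 1251 CPM per kb), followed by Gapdh (glyceraldehyde-3-phosphate dehydrogenase, 1011 CPM per kb), Eno1 (enolase, 661 CPM per kb) and Ldha (lactate dehydrogenase, 603 CPM per kb). Pgk1 (phosphoglycerate kinase, 476 CPM per kb), Aldoa (aldolase, 360 CPM per kb) and Tpi1 (triose phosphate isomerase, 289 CPM per kb) came next. The order of neighbours was not fixed across libraries: in vector 1 Ldha (741 CPM per kb) stood above Eno1 (723 CPM per kb), while in vector 2 it stood below (469 and 620 CPM per kb). The early steps were lower, with Gpi1 (glucose-6-phosphate isomerase) at 128, Pfkl (a phosphofructokinase) at 86.0 and Hk1 (a hexokinase) at 46.5 CPM per kb. Stretches of 50 bases shared with other genes, the most in Pgk1 (68.0%) and Gapdh (58.4%), may affect this order, which was not tested.

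**Figure D2:**
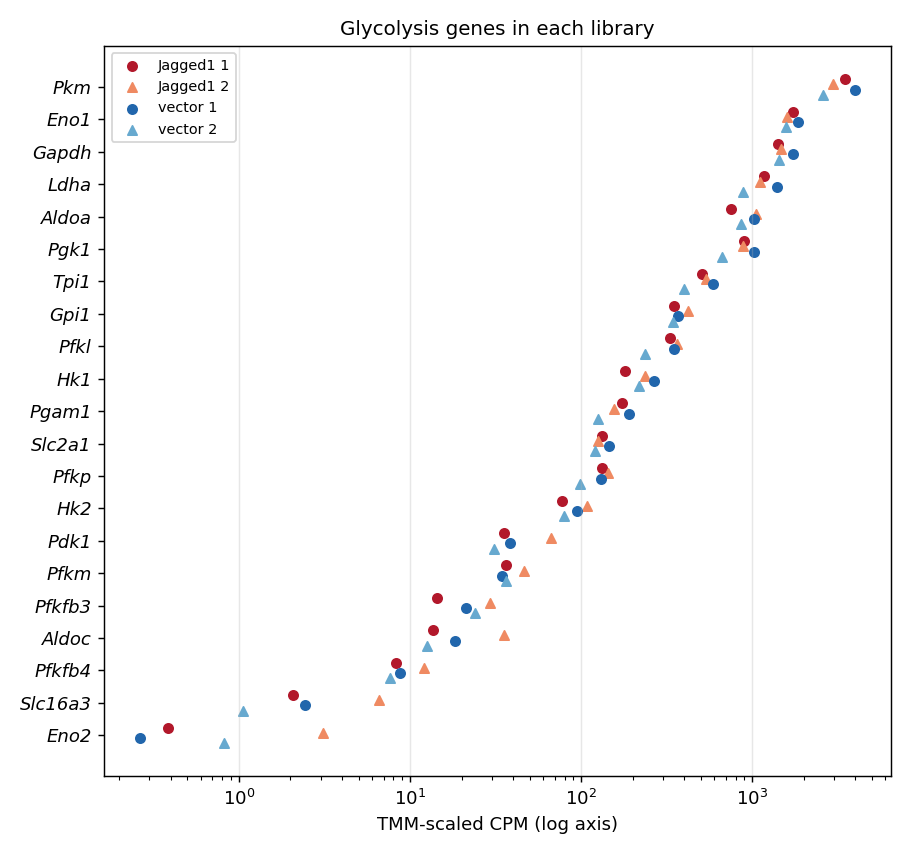
TMM-scaled CPM of the 21 glycolysis genes in each library on a log axis, sorted by mean level; red and orange mark the Jagged1 libraries, dark and light blue the vector libraries, circles replicate 1 and triangles replicate 2. Pkm, Ldha, Pgk1, Tpi1 and Pgam1 have vector 1 rightmost and vector 2 leftmost, while Slc16a3, Aldoc, Pdk1 and Eno2 stand out in Jagged1 2.

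The 2 carriers bring glucose in and take lactate out. Slc2a1, the gene of the glucose transporter GLUT1, had 133 and 125 CPM in Jagged1 cells and 146 and 120 CPM in vector cells, with a log2 fold change of -0.05 ± 0.17 (SE). The Jagged1 libraries lay within the range of the vector libraries. Slc16a3, the gene of the lactate exporter MCT4, had 2.08 and 6.57 CPM in Jagged1 cells and 2.45 and 1.06 CPM in vector cells, from 43 and 91 reads in Jagged1 cells and 37 and 13 reads in vector cells. Only Jagged1 2 lay above both vector libraries, and the log2 fold change was 1.27 ± 0.71; it was 0.23 without Jagged1 2 and 2.03 without vector 1. Slc16a1, the gene of the related carrier MCT1, was far more abundant, at 135 and 147 CPM in Jagged1 cells and 148 and 121 CPM in vector cells, and held between 94.8 and 98.4% of the summed level per kb of Slc16a1, Slc16a3 and Slc16a7.

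The hexokinases and phosphofructokinases, which commit glucose to the pathway, showed small differences. Hk1 had 181 and 236 CPM in Jagged1 cells and 266 and 219 CPM in vector cells, and Hk2, the isoform often raised in tumours, had 77.1 and 109 CPM in Jagged1 cells and 93.9 and 79.6 CPM in vector cells. The lines overlapped for both genes. Within each library, however, Hk2 made up 26.9 and 28.5% of the summed hexokinase level per kb in Jagged1 cells and 23.4 and 23.9% in vector cells, a share that does not depend on the scaling between libraries. The mean share was 27.7 ± 1.13% in Jagged1 cells and 23.6 ± 0.354% in vector cells (SD, n = 2 each), and the lines did not overlap. This share was singled out after its values were seen. Nor did the lines overlap in the family shares of Aldoc (1.55 and 2.82%, against 1.52 and 1.25%), Pdk1, Pdk3, Pfkfb4, Slc16a1 and Slc16a7. Shares within the phosphofructokinase, enolase, lactate dehydrogenase, EGLN, collagen prolyl hydroxylase (P4ha1 and P4ha2 only) and HIF alpha families overlapped. For levels of single genes, 13.9% of all tested genes had both Jagged1 libraries above both vector libraries and 15.1% had both below. No such background was computed for shares, and no share was tested. Counted as reads, Hk2 held 29.8 and 31.5% of hexokinase reads in Jagged1 cells and 26.1 and 26.6% in vector cells. The exact 95% binomial intervals were at most ± 1.44 points and cover counting error only, not the spread between libraries. Pfkp, the platelet-type phosphofructokinase, had 132 and 144 CPM in Jagged1 cells and 131 and 98.0 CPM in vector cells (log2 fold change 0.27 ± 0.19). Jagged1 1 exceeded vector 1 by under 1 CPM. Pfkm, the muscle type, had 36.3 and 46.5 CPM in Jagged1 cells and 34.6 and 36.2 CPM in vector cells (0.226 ± 0.185), and Pfkl, the liver type, had 330 and 365 CPM in Jagged1 cells and 350 and 237 CPM in vector cells (0.24 ± 0.23). Pfkl held 67.4 and 66.6% of the family's level per kb in Jagged1 cells and 69.1 and 64.6% in vector cells.

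Most enzymes of the lower pathway had intermediate values in Jagged1 cells and differed mainly between the vector libraries. Pkm had 3481 and 2966 CPM in Jagged1 cells and 3969 and 2586 CPM in vector cells, a log2 fold change of -0.02 ± 0.25. Ldha had 1177 and 1103 CPM in Jagged1 cells and 1403 and 888 CPM in vector cells (-0.007 ± 0.25). Pgk1 had 899.9 and 887 CPM in Jagged1 cells and 1019 and 667 CPM in vector cells (0.08 ± 0.24). In all 3 genes both Jagged1 libraries lay between vector 2, the lowest, and vector 1, the highest. Tpi1 (510 and 539 CPM in Jagged1 cells, 592 and 396 CPM in vector cells) and Pgam1, the gene of phosphoglycerate mutase (173 and 156 CPM in Jagged1 cells, 190.1 and 125 CPM in vector cells), had the same order. Leaving out vector 1 moved the log2 fold change of Ldha to 0.38 and that of Pkm to 0.34, and leaving out vector 2 moved both to -0.31. Eno1 (1718 and 1595 CPM in Jagged1 cells, 1841 and 1579 CPM in vector cells), Gapdh (1411 and 1469 CPM in Jagged1 cells, 1740.2 and 1427 CPM in vector cells) and Gpi1 (349 and 419 CPM in Jagged1 cells, 366 and 346 CPM in vector cells) varied less. Gapdh is often used as a stable control gene, and its log2 fold change was -0.137 ± 0.175.

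Aldolase had a major form and a rare one, and enolase a major form and more than 1 rare form. Aldoa had 751 and 1055 CPM in Jagged1 cells and 1027 and 861 CPM in vector cells. Aldoc, a brain-type aldolase that HIF is also known to raise, had 13.7 and 35.5 CPM in Jagged1 cells and 18.4 and 12.6 CPM in vector cells (0.66 ± 0.48); Jagged1 2 lay above both vector libraries and Jagged1 1 between them. Eno2, the neuronal enolase, was scarce, with 8 and 43 reads in Jagged1 cells and 4 and 10 reads in vector cells (0.387 and 3.11 CPM against 0.264 and 0.814 CPM). Its log2 fold change of 1.675 ± 1.12 rested on Jagged1 2 and was -0.43 without it. Eno3, another rare enolase, had 1.69 and 3.61 CPM in Jagged1 cells and 2.18 and 3.58 CPM in vector cells. Ldhb, the partner of Ldha in lactate dehydrogenase, held 2.68 ± 0.46% of the family's level per kb in Jagged1 cells and 2.58 ± 1.21% in vector cells (SD, n = 2 each).

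The 3 regulators of the pathway also stood highest in Jagged1 2. Pdk1, the kinase that shuts pyruvate out of the mitochondrial oxidation route, had 35.6 and 67.1 CPM in Jagged1 cells and 38.3 and 30.9 CPM in vector cells (0.56 ± 0.33). Jagged1 1 lay between the vector libraries. Pdk1 made up 22.8% of the level per kb of Pdk1, Pdk2 and Pdk3 in Jagged1 1 and 36.9% in Jagged1 2, against 21.5 and 21.6% in vector cells, so the share in Jagged1 1 was close to that of vector cells. Pfkfb3 and Pfkfb4 encode enzymes that set the level of fructose-2,6-bisphosphate, an activator of phosphofructokinase. Pfkfb3 had 14.3 and 29.2 CPM in Jagged1 cells and 21.2 and 24.1 CPM in vector cells (-0.06 ± 0.36), with the Jagged1 libraries on either side of the vector libraries. Pfkfb4 had 8.23 and 12.1 CPM in Jagged1 cells and 8.73 and 7.65 CPM in vector cells (0.30 ± 0.29). Within the summed level per kb of Pfkfb1, Pfkfb2, Pfkfb3 and Pfkfb4, Pfkfb2 held 36.5 and 31.7% in Jagged1 cells. In vector cells Pfkfb2 held 29.3 and 35.3%.

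**Figure D3:**
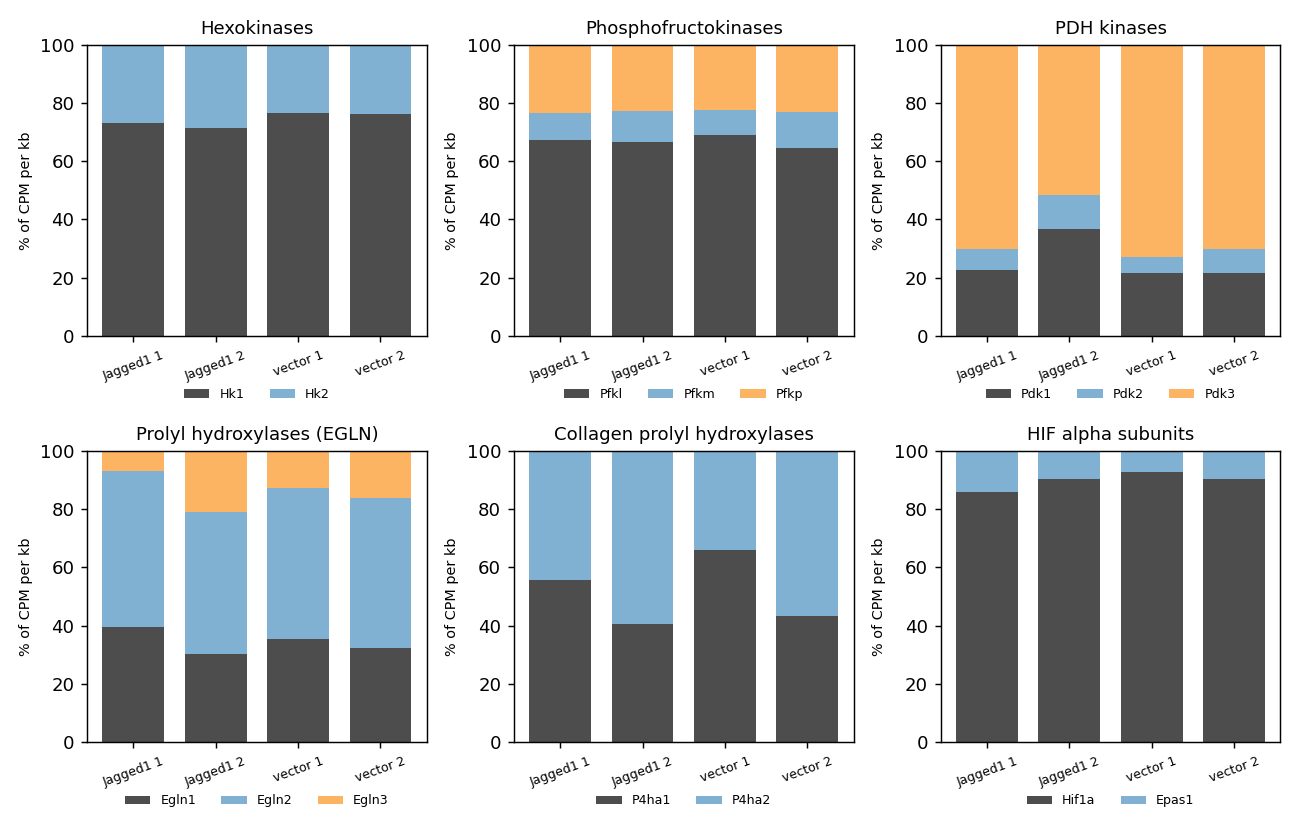
Share of each isozyme in the summed level per kb of its family, one stacked bar per library, Jagged1 libraries left of the vector libraries. Hk2 takes 26.9 and 28.5% in Jagged1 cells and 23.4 and 23.9% in vector cells. Pdk1 and Egln3 take their largest shares in Jagged1 2 (36.9 and 20.9%). P4ha2, summed with P4ha1 only, ranges from 33.9% in vector 1 to 59.3% in Jagged1 2.

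Of the HIF alpha genes, Epas1 had values that did not overlap between the lines and Hif1a had values that did. Epas1, which encodes the alpha subunit HIF-2-alpha (chromosome 17, 86753700 to 86833410, plus strand, GRCm38), had 18.6 and 18.3 CPM in Jagged1 cells and 9.06 and 13.8 CPM in vector cells. The lines did not overlap, with a mean of 18.5 ± 0.204 CPM against 11.4 ± 3.38 CPM (SD, n = 2 each) and a log2 fold change of 0.69 ± 0.26 (edgeR, unadjusted p = 0.0422, adjusted p = 1). Hif1a had 112 and 172 CPM in Jagged1 cells and 112 and 127 CPM in vector cells (0.25 ± 0.24), so that Jagged1 2 alone stood above vector cells. Hif1a was the major form throughout, with 85.8 and 90.5% of the summed level per kb in Jagged1 cells and 92.6 and 90.3% in vector cells. Hif1a and Epas1 protein is controlled mainly by degradation, which transcript counts do not measure. Egln1, the main oxygen sensor of the HIF system, had 99.4 and 87.9 CPM in Jagged1 cells and 99.8 and 72.8 CPM in vector cells (0.12 ± 0.20). Egln3, itself a HIF target, had 12.8 and 45.1 CPM in Jagged1 cells and 26.4 and 26.5 CPM in vector cells. The SD of its vector libraries was 0.119 CPM, while the Jagged1 libraries stood on either side of them, 3.53-fold apart, and its log2 fold change of 0.12 ± 0.56 became 0.77 without Jagged1 1 and -1.05 without Jagged1 2.

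Ndrg1 and Adm were lower in both Jagged1 libraries than in both vector libraries, though neither passed the adjusted threshold. Ndrg1, a stress-responsive gene long used as a hypoxia marker (chromosome 15, 66929318 to 66969640, minus strand), had 27.7 and 32.4 CPM in Jagged1 cells and 56.3 and 41.0 CPM in vector cells. The log2 fold change was -0.698 ± 0.215 (edgeR, unadjusted p = 0.0202, adjusted p = 1) and stayed between -0.92 and -0.43 when any 1 library was left out. Adm, the gene of the vasodilator peptide adrenomedullin (chromosome 7, 110627661 to 110629820, plus strand), had 1.74 and 4.84 CPM in Jagged1 cells and 8.79 and 7.98 CPM in vector cells, from 36 and 67 reads in Jagged1 cells and 133 and 98 reads in vector cells. Its log2 fold change was -1.37 ± 0.52 (edgeR, unadjusted p = 0.0438, adjusted p = 1), -2.26 without Jagged1 2 and -0.795 without Jagged1 1. Exons of Ndrg1 overlap genes on the other strand over 556 of 2889 bases, and without strand information reads there cannot be assigned.

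Other HIF targets pointed in both directions between single libraries. Car9, the gene of the pH-regulating carbonic anhydrase IX, had 25.5 and 17.4 CPM in Jagged1 cells and 12.8 and 18.8 CPM in vector cells (0.445 ± 0.294). Car9 was highest in Jagged1 1, the library with the lowest values of Egln3, Pfkfb3, Adm and Hk2. Bnip3, which promotes the removal of mitochondria, had 17.7 and 32.1 CPM in Jagged1 cells and 25.3 and 14.5 CPM in vector cells (0.32 ± 0.39), and the lines overlapped. Ankrd37, a small ankyrin repeat gene induced by hypoxia, was scarce, with 43 and 29 reads in Jagged1 cells and 17 and 17 reads in vector cells. Its levels were 2.08 and 2.09 CPM in Jagged1 cells and 1.12 and 1.38 CPM in vector cells, and the log2 fold change was 0.74 ± 0.42.

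The genes for protein folding and collagen maturation included the 1 member with the largest positive value among the 12. P4ha2, a subunit of collagen prolyl 4-hydroxylase, had 27.5 and 60.5 CPM in Jagged1 cells and 18.6 and 31.9 CPM in vector cells. The log2 fold change was 0.798 ± 0.445, but Jagged1 1 lay below vector 2; it was 0.127 without Jagged1 2. The difference of log2 CPM was 0.56 within replicate number 1 and 0.92 within number 2. P4ha1, another catalytic subunit, had 60.7 and 73.2 CPM in Jagged1 cells and 64.0 and 42.7 CPM in vector cells (0.325 ± 0.241). Ero1l, an oxidase of the endoplasmic reticulum that forms disulfide bonds, had the highest level per kb of the 12 (52.4 CPM per kb), with 195 and 261 CPM in Jagged1 cells and 269.9 and 201 CPM in vector cells (-0.05 ± 0.23).

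**Figure D4:**
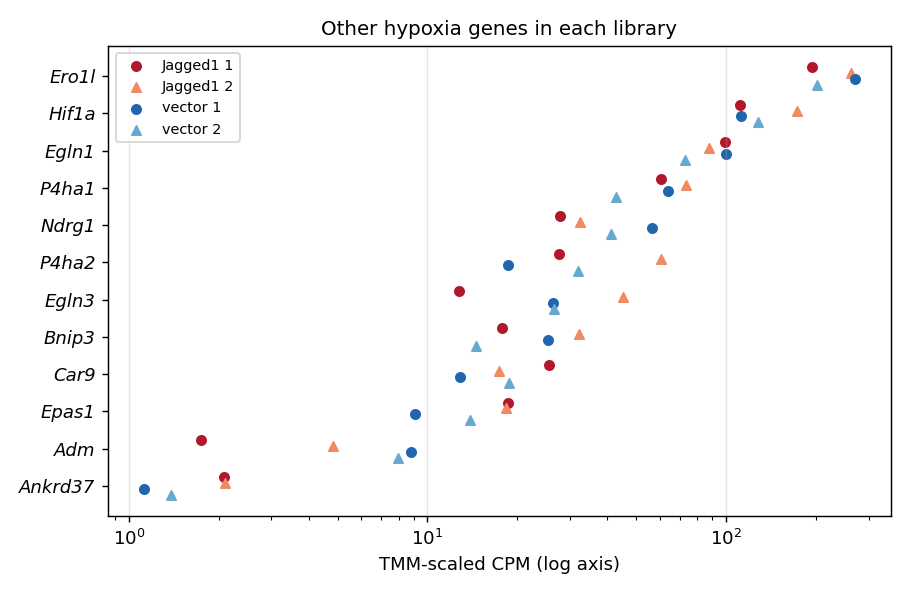
TMM-scaled CPM of the 12 other hypoxia genes in each library on a log axis, sorted by mean level, with the same colours and symbols as the glycolysis plot. Adm and Ndrg1 have both Jagged1 libraries to the left of the vector libraries, Epas1 and Ankrd37 have both to the right, and Egln3 spans from 12.8 CPM in Jagged1 1 to 45.1 CPM in Jagged1 2.

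Many members differed between libraries of the same line, in the vector line mainly abundant enzymes and in the Jagged1 line mainly regulators and other hypoxia genes. Vector 1 exceeded vector 2 by over 0.5 in log2 CPM in 10 of 33 members (30.3%), against 5.38% of all tested genes, and the reverse held in 4 members (12.1%), against 16.1%. Of these 10, 7 were enzymes of the pathway. By any amount, 14 of 16 enzymes were higher in vector 1 than in vector 2, against 6622 of 13299 tested genes. Ldha was 1.58-fold, Pgk1, Pgam1 and Pkm 1.53-fold and Tpi1 1.49-fold higher in vector 1 than in vector 2, while in Jagged1 cells the same 5 genes differed by a factor between 0.852 and 1.06 (Jagged1 2 over Jagged1 1). Jagged1 2 exceeded Jagged1 1 by over 0.5 in log2 CPM in 11 members (33.3%), against 16.5% of all tested genes, and the reverse held in 1 member, Car9 (3.03%), against 10.5%. Of those 11, 2 were enzymes, the scarce Eno2 (8.02-fold) and Aldoc (2.59-fold). The others were Egln3 (3.53-fold), Slc16a3 (3.16-fold), Adm (2.78-fold), P4ha2 (2.20-fold), Pfkfb3 (2.04-fold), Pdk1 (1.88-fold), Bnip3 (1.81-fold), Hif1a (1.55-fold) and Pfkfb4 (1.47-fold). Bnip3, Slc16a3 and Aldoc were past the step in both of these directions. These steps were chosen after the values were seen and carry no test.

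**Figure D5:**
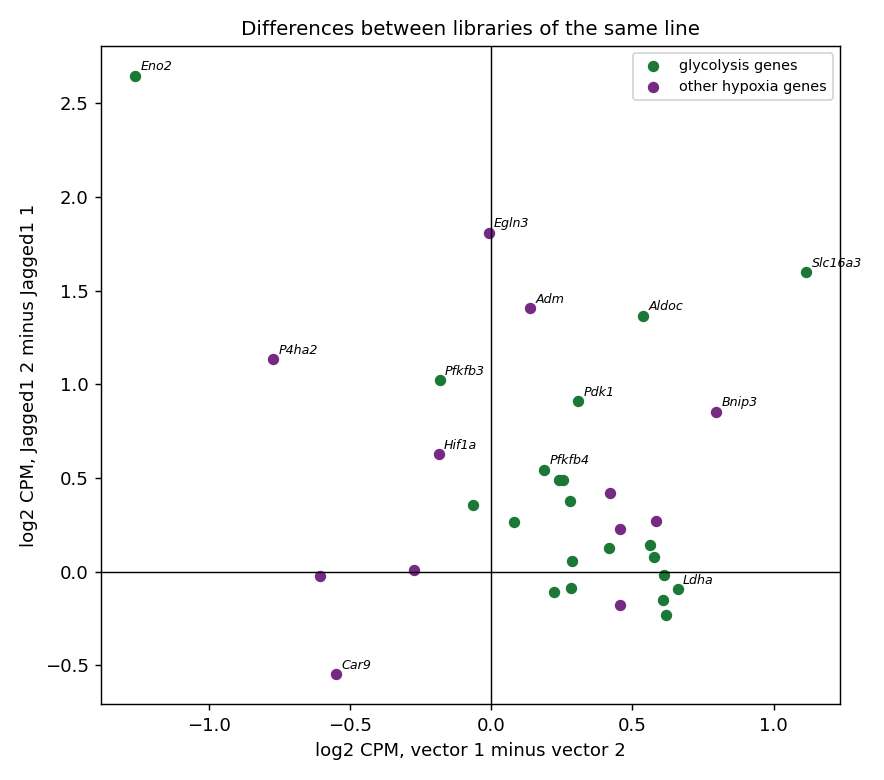
Difference of log2 CPM between the libraries of each line for the 33 members, vector 1 minus vector 2 on the horizontal axis and Jagged1 2 minus Jagged1 1 on the vertical axis; green points are glycolysis genes and purple points other hypoxia genes. Ldha, Pkm and other abundant enzymes lie to the right near the horizontal line, while Egln3, Adm and Pfkfb3 lie high near the vertical line.

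The difference between the lines depended on which libraries were set against each other. The median log2 difference over the 21 glycolysis genes was -0.18 between Jagged1 1 and vector 1 and 0.36 between Jagged1 2 and vector 2, where all tested genes had medians of -0.002 and -0.02. Over the 12 other hypoxia genes these medians were -0.04 and 0.42. Without Jagged1 1, a fit that leaves Jagged1 cells with 1 library assumed to vary like vector cells, 3 of 33 members were called higher in Jagged1 cells (9.09%), against 1.38% of all tested genes in that fit. These were Aldoc (log2 fold change 1.19, adjusted p = 0.0261), Pdk1 (0.95, adjusted p = 0.0396) and P4ha2 (1.27, adjusted p = 0.04). Without Jagged1 2 the log2 fold changes of these 3 genes were -0.18 (Aldoc), 0.04 (Pdk1) and 0.127 (P4ha2), and 0 members were called, against 0.352% of all tested genes, and without vector 1 or vector 2 no member and no other gene was called. Markers of other cell types also differed between these libraries. The summed macrophage markers stood at 174 and 391 CPM in Jagged1 cells and 210 and 232 CPM in vector cells, nearly all of it Cd14 (173 and 386 CPM, against 208 and 228 CPM), with Ptprc at most 1 read. The 4 fibroblast markers summed to 8.32 and 14.4 CPM in Jagged1 cells and 3.37 and 4.97 CPM in vector cells, with Lum at 0 in all libraries and Col3a1 read 83 times in Jagged1 2 and 0 times in the others. The 4 endothelial markers summed to 0.581 and 6.35 CPM in Jagged1 cells and 0.661 and 2.85 CPM in vector cells, mostly Cdh5. Their part in the spread of the members was not tested.

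The promoters of the members were searched for the core that HIF binds, spelled ACGTG or GCGTG, on both strands. RefSeq windows on GRCm38.p6, from 250 bases before to 50 bases after each start, were matched for 31 of 33 members, with several starts for some genes. A core was found for 28 of these 31 genes (90.3%), 18 of 21 glycolysis genes and 10 of 10 other hypoxia genes, against 68.8% of the 8962 tested genes with a window and 46.7% of 27025 genes in all. The ACGTG form was found for 22 of 31 (71.0%), against 29.5% of tested genes. These shares describe the letters and do not measure HIF binding. The 250 bases before the start are shown for 3 enzymes that shared the order of libraries given above, with many, few and no matches, and for P4ha2 and Adm, whose values lay furthest from 0 in each direction among the 12 other hypoxia genes. They read 5′ to 3′ on the strand of the gene, with matches to the core on either strand in capitals; the 6 letters CACGTG match on both strands at once.
Ldha, chr7:46845554-46845803, plus strand: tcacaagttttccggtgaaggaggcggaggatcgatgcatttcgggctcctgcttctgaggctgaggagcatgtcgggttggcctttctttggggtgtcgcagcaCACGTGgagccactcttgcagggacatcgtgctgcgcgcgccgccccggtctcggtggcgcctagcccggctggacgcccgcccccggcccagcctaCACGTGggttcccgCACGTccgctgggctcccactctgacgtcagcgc
Pgk1, chrX:106186850-106187099, plus strand: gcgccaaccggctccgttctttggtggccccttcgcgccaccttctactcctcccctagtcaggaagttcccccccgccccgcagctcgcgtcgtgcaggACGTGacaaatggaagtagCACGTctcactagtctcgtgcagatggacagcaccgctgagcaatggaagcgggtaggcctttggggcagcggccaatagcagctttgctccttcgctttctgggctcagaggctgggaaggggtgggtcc
Tpi1, chr6:124814159-124814408, minus strand: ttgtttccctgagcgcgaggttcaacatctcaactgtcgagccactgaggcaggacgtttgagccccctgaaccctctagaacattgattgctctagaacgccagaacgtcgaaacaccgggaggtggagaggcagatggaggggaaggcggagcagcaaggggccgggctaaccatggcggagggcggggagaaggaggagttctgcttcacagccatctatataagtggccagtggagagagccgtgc
P4ha2, chr11:54100674-54100923, plus strand: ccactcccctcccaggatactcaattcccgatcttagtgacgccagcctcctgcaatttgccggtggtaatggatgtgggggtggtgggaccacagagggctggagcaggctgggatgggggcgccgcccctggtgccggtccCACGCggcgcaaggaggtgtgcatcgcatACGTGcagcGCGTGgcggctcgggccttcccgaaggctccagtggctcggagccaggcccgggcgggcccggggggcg
Adm, chr7:110627407-110627656, plus strand: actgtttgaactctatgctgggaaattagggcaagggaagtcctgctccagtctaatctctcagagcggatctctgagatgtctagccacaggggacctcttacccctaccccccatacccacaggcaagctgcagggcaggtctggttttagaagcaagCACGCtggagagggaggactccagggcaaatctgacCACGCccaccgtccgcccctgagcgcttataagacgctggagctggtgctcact

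The stretch of Ldha held 5 matches, all of the ACGTG form, that of Pgk1 held 2, that of P4ha2 held 3, of which 1 of the ACGTG form, and that of Adm held 2 of the GCGTG form, while that of Tpi1 held 0.

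Other genes of the same pathways were also not called. Of 33 further isozymes and carriers 22 were tested, 11 positive and 11 negative, with a median log2 fold change of 0.02 and 0 called by edgeR or DESeq2. At an unadjusted p under 0.05 stood 1 of 22 (4.55%), near the 3.96% of all tested genes. That 1 was Slc16a7, the gene of the pyruvate and lactate carrier MCT2, with 8.08 and 3.83 CPM in Jagged1 cells and 2.05 and 2.28 CPM in vector cells (1.465 ± 0.47; edgeR, unadjusted p = 0.0235, adjusted p = 1). The lines did not overlap. Of 37 further hypoxia pathway genes 31 were tested, 18 positive and 13 negative, with a median of 0.03 and 0 called by either tool. At an unadjusted p under 0.05 stood 2 of 31 (6.45%), against the same 3.96%. These 2, named after their values were seen, were Zfp395, with 81.8 and 80.7 CPM in Jagged1 cells and 65.8 and 50.8 CPM in vector cells, and Plin2, a lipid droplet protein gene, with 353 and 384 CPM in Jagged1 cells and 503 and 472 CPM in vector cells. Egln2, the third EGLN hydroxylase, held 51.1 ± 3.18% of the family's level per kb in Jagged1 cells and 51.5 ± 0.212% in vector cells. Vegfa, the angiogenic factor, had 75.2 and 180.4 CPM in Jagged1 cells and 122 and 143 CPM in vector cells, the same order of libraries as Egln3 and Pfkfb3. Plod2, a collagen lysyl hydroxylase, had 45.4 and 112 CPM in Jagged1 cells and 45.4 and 67.8 CPM in vector cells. Only Jagged1 2 lay above both vector libraries, and the log2 fold change over all 4 libraries was 0.471 ± 0.451.

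Part of the reads of several members cannot be assigned with certainty. Of all stretches of 50 bases in their transcripts, 68.0% in Pgk1, 58.4% in Gapdh, 49.5% in Eno1 and 41.5% in Pgam1 also occur in other annotated genes. In Pkm it was 23.7%, in Bnip3 20.7%, in Gpi1 18.6% and in Ldha 10.4%. Eno1b, which alone shares 48.4% of the stretches of Eno1, carried 6589 and 4175 reads in Jagged1 cells and 5209 and 3893 reads in vector cells, beside 35500 and 22083 reads of Eno1 in Jagged1 cells and 27854 and 19390 in vector cells. Its log2 fold change was -0.09 ± 0.15. Exons of 11 members overlap genes on the opposite strand, among them Ankrd37 (243 of 927 bases) and Pfkp (748 of 4298 bases). The 2 splice forms of Pkm cannot be told apart in counts per gene.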

How the data were processed

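The authors deposited a table of whole-number counts, with a row for each gene and a column for each of the 4 libraries; its columns sum to different totals, so no scaling had been applied. Per the submitters' processing notes, STAR 2.6.0c and featureCounts 1.6.2 were used with mm10 (GRCm38); the sources used here give neither the annotation release nor the strand setting. These counts were passed through edgeR 4.0.16: low genes were removed by filterByExpr at a minimum of 10 counts (13299 of 33677 kept), and the rest were scaled with TMM factors and tested, Jagged1 over vector, with edgeR's quasi-likelihood F test (glmQLFit, robust and legacy settings) in R 4.3.3. P-values were adjusted by the Benjamini-Hochberg method over all tested genes (threshold 0.05). The standard error (SE) of a log2 fold change was its size over the root of the F statistic. Log2 CPM for differences between libraries used a prior count of 2. DESeq2 1.42.0, RLE factors, no filter, the replicate number as a block and leaving out each library were alternatives. The fits were tested on simulated data with large changes planted in well-read genes and the same spread for every gene. That gives no measure of power for small changes. Levels per kb divide CPM by the union of exons in the GENCODE M21 basic annotation; shared stretches and overlaps also come from GENCODE M21. Nothing in the labels says that replicates were separate cultures, so p-values measure only the spread between these libraries, which may be technical. The members and lists were chosen with earlier results of these data known. All members are named. Of the other pathway lists, genes called in any fit and some partner isozymes are named. Also named are genes past an absolute log2 fold change of 0.5 with lines that do not overlap. Vegfa, Zfp395 and Plin2 were named after their values were seen. Columns of no sample numbered 0.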

Additional observations from a re-analysis of the deposited data

How the results depend on the processing

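The number of genes called rose to 47 with DESeq2, 169 without the filter on low counts and 17 with the replicate number as a block, against 1 in the edgeR fit reported; the cause was not tested. With 1 library left out it lay between 0 and 193, the number of glycolysis genes called between 0 and 2 and that of other hypoxia genes between 0 and 1. The glycolysis median lay between -0.027 and 0.382, with the high end without vector 1, and the median of the other hypoxia genes between 0.014 and 0.488.

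Nothing in the labels ties equal replicate numbers to shared handling. Deviations of same-numbered libraries from their line means correlated at 0.425 across 13299 genes, which are not independent replicates. With the replicate block, Pkm (0.004), Ldha (0.029) and Egln3 (-0.125) changed sign, and no member was called.

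RLE factors, DESeq2 and the missing filter changed the sign of no member. Of 33 members 13 kept their sign whichever library was left out and 20 did not. A kept sign did not mean a kept size: the smallest values were 0.007 (Pfkfb4), 0.04 (Pdk1 and Pfkm), 0.055 (P4ha1), 0.067 (Pfkp), 0.127 (P4ha2), 0.142 (Car9), 0.232 (Slc16a3) and -0.045 (Hk1). The ranges of the 20 over the 4 such fits were, for carriers and early steps, -0.192 to 0.119 (Slc2a1), -0.168 to 0.32 (Hk2), -0.025 to 0.235 (Gpi1), -0.019 to 0.572 (Pfkl) and -0.659 to 0.368 (Pfkfb3). For later steps they were -0.329 to 0.157 (Aldoa), -0.18 to 1.189 (Aldoc), -0.182 to 0.424 (Tpi1), -0.281 to 0.035 (Gapdh), -0.198 to 0.443 (Pgk1), -0.218 to 0.421 (Pgam1), -0.161 to 0.09 (Eno1), -0.432 to 2.649 (Eno2), -0.308 to 0.34 (Pkm) and -0.308 to 0.382 (Ldha). For the other hypoxia genes they were -0.169 to 0.798 (Bnip3), -0.1 to 0.385 (Egln1), -1.048 to 0.769 (Egln3), -0.275 to 0.197 (Ero1l) and -0.099 to 0.527 (Hif1a). Depth limits Eno2, Slc16a3, Ankrd37 and Adm, each with a library under 40 reads.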
